A study of Mus musculus with 15 samples.

Results

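The 33 genes described here encode the enzymes and the ornithine carrier of the urea cycle, the liver glutaminase, and 4 aspartate and alanine aminotransferases. The others encode enzymes that break down tyrosine, serine, proline, histidine, the branched-chain amino acids, tryptophan and lysine. All 33 were chosen by gene symbol, for their function and not by a measured value, but with earlier results of these data known. Each was found among the 18510 rows of the deposited expression table. Expression was measured by RNA sequencing of whole mouse liver, 1 library per mouse and 5 mice per group. All mice were WT. The Ctrl group received the control diet and the Alc group the alcohol diet, and the treatment label of the Alc UA group is "alcohol diet / UA". What UA stands for, its dose, the length of feeding, and the sex, strain, age and hour of collection of the mice are stated neither in the labels nor in the table.

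Amino acids that are not built into protein are stripped of their nitrogen in the liver. Aminotransferases collect that nitrogen on glutamate and aspartate, glutaminase and glutamate dehydrogenase release it as ammonia, and the urea cycle, which runs partly in the mitochondrion and partly in the cytosol of hepatocytes, turns it into urea for excretion. The remaining carbon skeletons enter glucose production, ketone body formation or the citric acid cycle through a separate route for each amino acid. Several of these genes are known to be more active in periportal than in pericentral hepatocytes, and to respond to fasting, dietary protein, glucagon and glucocorticoids.

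Values are FPKM, fragments counted per transcript length and per depth of the library. Differences are log2 fold changes of FPKM + 1 from limma fitted to all 10959 genes that reached 1 FPKM in at least 5 of the 15 libraries, given as the estimate ± its standard error, with p-values adjusted over all of those genes by the Benjamini-Hochberg method. A gene was said to rise or fall only where the adjusted p was below 0.05. All 33 genes passed the filter. In the Ctrl livers the highest mean levels belonged to Hpd at 1558 ± 118 FPKM (SD, n = 5), Ass1 at 1556 ± 178 and Arg1 at 1248 ± 302, and the lowest to Bckdk at 5.69 ± 0.897 and Acmsd at 2.63 ± 0.537. Hpd and Ass1, first and second in that order, differed by less than their spread. Together the 33 genes took 1.52% to 1.82% of a library's summed FPKM in Ctrl, 1.47% to 2.51% in Alc and 1.24% to 2.30% in Alc UA, ranges that overlap.

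On the alcohol diet, the enzymes of proline breakdown and 3 of 4 aspartate and alanine aminotransferases were higher than in control livers. Tat, the tyrosine aminotransferase, did not pass (-0.28 log2, adjusted p = 0.46), nor did any gene of the urea cycle. Of the 33 genes, 6 rose, namely Prodh, Aldh4a1, Got2, Gpt, Gpt2 and Uroc1, and 2 fell, Kynu and Sdsl. Over all 10959 tested genes 3654 were called in either direction, a background of 33.3%, made up of 10.6% that rose and 22.8% that fell. Of the called genes, 6 of 8 were higher here and 1157 of 3654 among all tested genes. That split depends on the scaling of the libraries: with median-of-ratios size factors 9 of the 33 genes rose and 0 fell, and over all tested genes 2206 rose and 1672 fell. The median difference was 0.06 log2 over the 33 genes and -0.12 over all tested genes, and with size factors these became 0.23 and 0.02. At an unadjusted p below 0.05, 8 of the 33 genes were higher and 2 lower, against 13.8% higher and 31.2% lower over all tested genes. In whole liver, a change in the share of a cell type and a change in RNA per cell cannot be told apart.

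**Figure D1:**
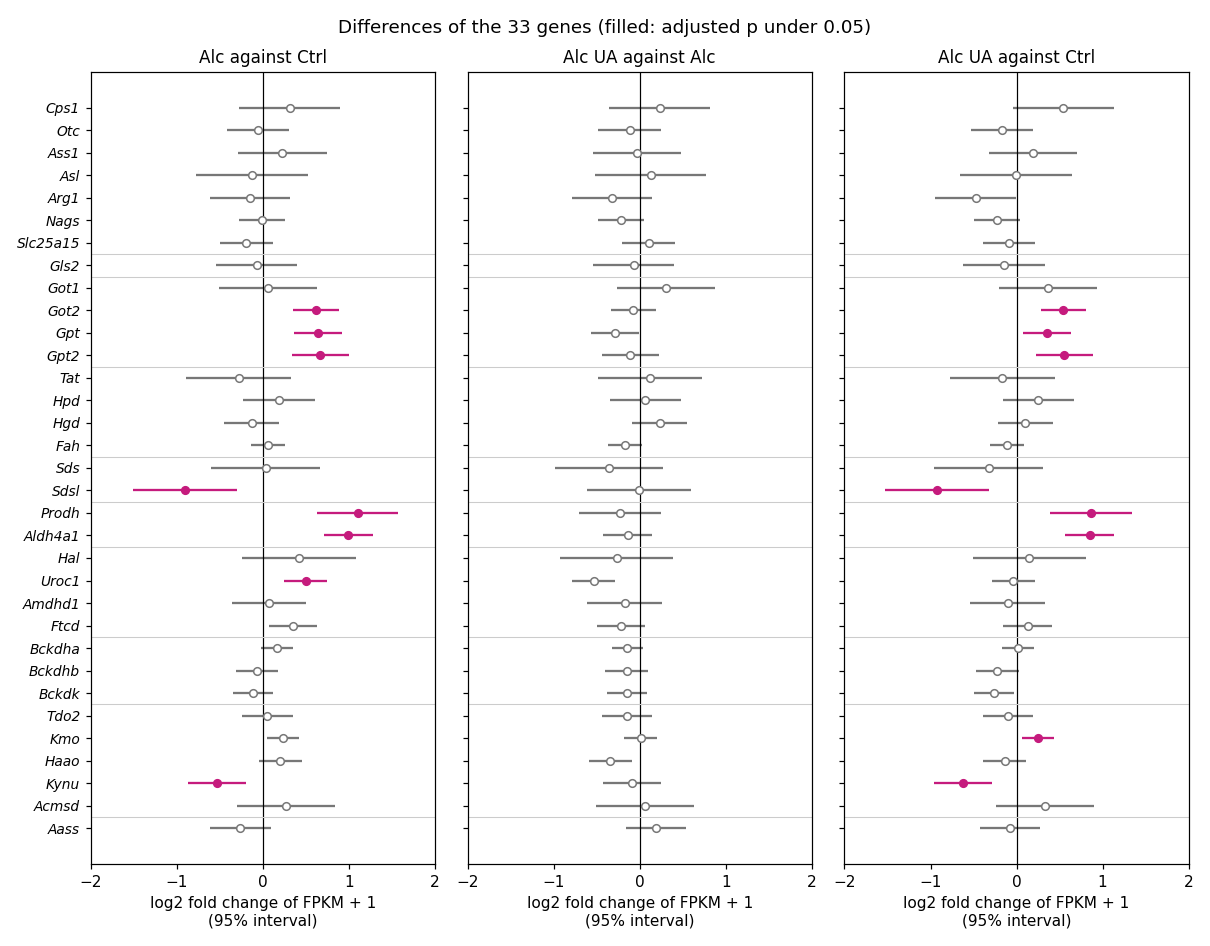
Log2 fold change of FPKM + 1 (x axis, points) with its 95% interval (lines) for each of the 33 genes (y axis, grouped by pathway) in the 3 comparisons, from the limma fit with n = 5 per group. Filled points have an adjusted p below 0.05: 6 genes lie to the right and 2 to the left in Alc against Ctrl, 0 in Alc UA against Alc, and 6 to the right and 2 to the left in Alc UA against Ctrl.

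The urea cycle itself was described by 7 genes. Cps1 encodes carbamoyl phosphate synthetase, which fixes ammonia in the first step of the cycle and is its rate-controlling enzyme. Its level in the 5 Ctrl livers was 381, 509, 549, 629 and 488 FPKM, in the Alc livers 1074, 634, 858, 311 and 528 FPKM, and in the Alc UA livers 1097, 735, 627, 809.6 and 528 FPKM. The Alc livers spanned the whole range of the controls, with 1 library below the lowest control and 3 above the highest. The difference between Alc and Ctrl was 0.31 ± 0.28 (adjusted p = 0.40), with a 95% interval of -0.27 to 0.90. Nags, which makes the N-acetylglutamate that Cps1 needs as an activator, had 25.6 ± 0.588 FPKM (SD, n = 5) in Ctrl and 25.7 ± 4.14 in Alc.

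Otc joins carbamoyl phosphate to ornithine to give citrulline. It ranged over 123 to 207 FPKM in Ctrl, 110 to 184 in Alc and 94.6 to 167 in Alc UA. Slc25a15, the carrier that exchanges ornithine and citrulline across the inner mitochondrial membrane, ranged over 88.4 to 112, 76.5 to 118 and 75.0 to 123 FPKM in the same order of groups. For both genes the 3 ranges overlapped.

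In the cytosol, Ass1 joins citrulline to aspartate, the second nitrogen donor, and Asl splits the product into arginine and fumarate. Ass1 stood at 1691, 1442, 1752, 1576 and 1317 FPKM in Ctrl, 2673, 1717, 2593, 1123 and 1453 in Alc and 2293, 1773, 1942, 2067 and 1058 in Alc UA. Asl stood at 353, 482, 529, 691 and 384 FPKM in Ctrl, 698, 409, 638, 223 and 376 in Alc and 751, 440.1, 483, 549 and 269 in Alc UA. In both alcohol groups the values of these genes were spread more widely than in the controls, the coefficient of variation of Ass1 being 11.5% in Ctrl, 36.2% in Alc and 25.7% in Alc UA.

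Arg1, arginase, releases urea and regenerates ornithine. Its level was 1175, 1391, 1216, 1639.7 and 819 FPKM in Ctrl, 1383, 1037, 1403, 879 and 901 in Alc and 1185, 756, 1063, 929.9 and 578 in Alc UA. The Alc UA mean was 903 ± 242 and the Ctrl mean 1248 ± 302 FPKM (SD, n = 5 each), a difference of -0.48 ± 0.22 (adjusted p = 0.091) between groups whose values overlapped. Without the Ctrl 5 library, the lowest control, that difference was -0.62 with an adjusted p of 0.026. The cycle's 7 genes gave 0 calls by limma in each of the 3 comparisons. Cps1 passed in Alc UA against Ctrl when only those 2 groups were fitted, at 0.54 (adjusted p = 0.047), and Arg1 passed with library weights, at -0.63 (adjusted p = 0.013). The cycle's differences differences from Ctrl ran from -0.19 (Slc25a15) to 0.31 (Cps1) in Alc and from -0.48 (Arg1) to 0.54 (Cps1) in Alc UA. At an unadjusted p below 0.05 the counts were 0 of 7 in Alc against Ctrl, 0 of 7 in Alc UA against Alc and 1 of 7, Arg1, in Alc UA against Ctrl. Over all tested genes the shares at that threshold were 45%, 6.06% and 51.4%, the last made up of 13.1% higher and 38.3% lower. The widest 95% interval of the 7 in Alc against Ctrl was that of Asl, -0.78 to 0.52.

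**Figure D2:**
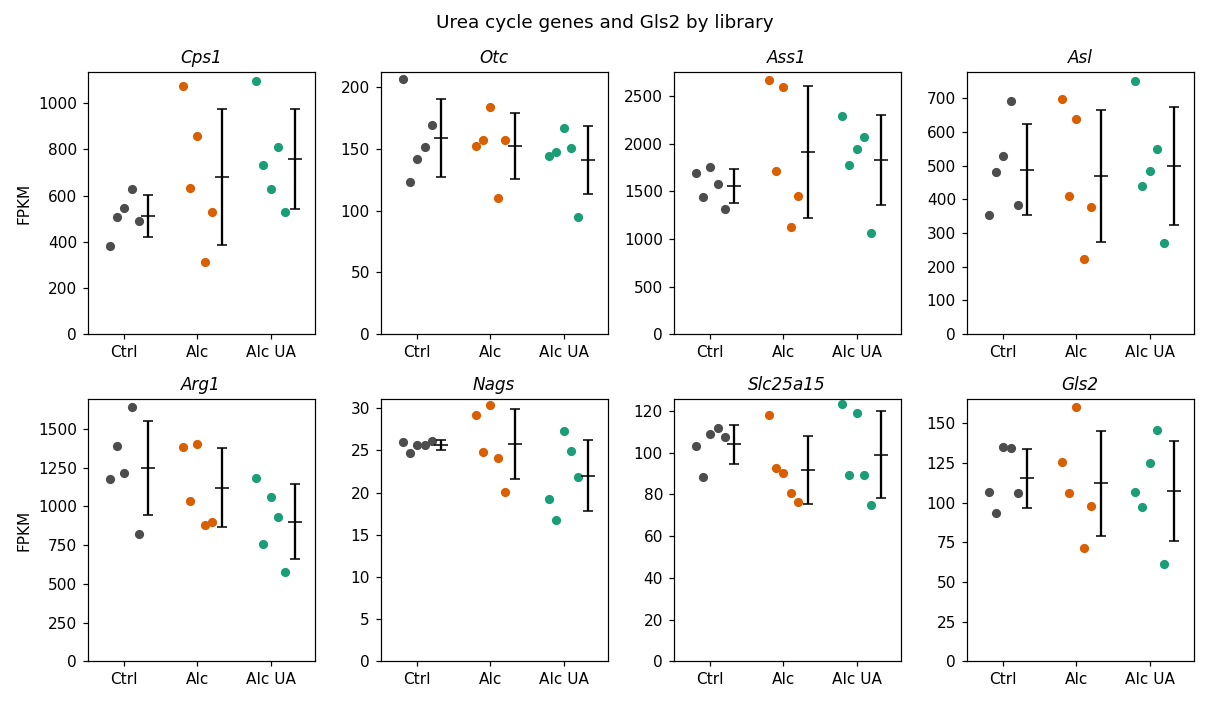
FPKM (y axis, from 0) of the 7 urea cycle genes and Gls2 in each of the 15 libraries, grouped as Ctrl, Alc and Alc UA on the x axis, with each group's mean and SD beside its points. The groups overlap in every panel, and Alc 4 and Alc UA 5 (the next-to-last orange and the last green points) are the lowest of their groups for Cps1, Otc, Ass1, Asl, Arg1 and Gls2.

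Gls2, the liver glutaminase that frees ammonia from glutamine beside the urea cycle, ranged over 93.3 to 135 FPKM in Ctrl, 71.3 to 160.3 in Alc and 61.4 to 146 in Alc UA, with a difference of -0.07 ± 0.22 (adjusted p = 0.82) between Alc and Ctrl. It overlaps Spryd4 on the opposite strand in the GENCODE M21 annotation, and whether reads were counted by strand is stated in neither the labels nor the table. The same holds for Bckdha with B3gnt8 and Sds with Plbd2, so reads of these 3 genes may be shared with the neighbour. Aldh4a1 overlaps Gm21969, a protein-coding model on the same strand, so counting by strand would not separate their reads. Got2, Nags and Acmsd overlap models on the opposite strand. The models that these 4 genes overlap are not rows of the table.

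On the log2(FPKM + 1) scale the 2 proline genes showed the largest differences among the 33 in Alc against Ctrl, while as a ratio of mean FPKM that of Sdsl, 2.11-fold higher in Ctrl, was larger than either. Prodh, proline dehydrogenase, opens proline breakdown in the mitochondrion, and Aldh4a1 then oxidises the product to glutamate. Prodh stood at 88.1, 36.6, 47.1, 35.6 and 32.7 FPKM in the Ctrl livers, 98.3, 87.4, 131, 77.7 and 97.3 in the Alc livers and 90.2, 80.4, 81.8, 99.8 and 64.1 in the Alc UA livers. All controls except Ctrl 1 lay below every library of both alcohol groups, and Ctrl 1 lay among them. The mean was 2.05-fold higher in Alc than in Ctrl, a difference of 1.10 ± 0.22 (adjusted p = 0.0024), and 1.73-fold higher in Alc UA than in Ctrl, a difference of 0.87 ± 0.22 (adjusted p = 0.0064). Both calls held in all 28 alternative settings, Ctrl 1 left out among them.

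Aldh4a1 was measured at 91.3, 68.8, 93.6, 58.0 and 104 FPKM in Ctrl, 148, 163, 151, 165 and 191 in Alc and 158, 145, 143, 151 and 141 in Alc UA. All 10 livers of the alcohol groups lay above the highest control. The difference was 0.99 ± 0.14 (adjusted p = 1.8e-04) in Alc against Ctrl and 0.85 ± 0.14 (adjusted p = 3.2e-04) in Alc UA against Ctrl, the smallest p among the 33 genes in either comparison. The last 2 comparisons share the 5 Ctrl livers, as do all values given below for Alc and Alc UA against Ctrl.

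The aminotransferases move nitrogen between amino acids and 2-oxo acids. Got2 is the mitochondrial aspartate aminotransferase, which also works in the malate-aspartate shuttle, and Got1 is its cytosolic counterpart. Got2 stood at 152, 186, 216, 148 and 230.1 FPKM in Ctrl, 252, 260.02, 274, 316 and 314 in Alc and 257, 277, 288, 267 and 251 in Alc UA, so that every liver of both alcohol groups lay above every control. The difference was 0.62 ± 0.12 (adjusted p = 0.0022) in Alc and 0.54 ± 0.12 (adjusted p = 0.0032) in Alc UA, each against Ctrl. Got1 ranged over 146 to 292 FPKM in Ctrl, 147 to 295 in Alc and 164 to 484 in Alc UA, and its difference of 0.06 ± 0.27 in Alc did not pass (adjusted p = 0.87).

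Gpt and Gpt2 are the cytosolic and mitochondrial alanine aminotransferases, which interconvert alanine and pyruvate. Gpt stood at 134, 118, 127, 139.9 and 114 FPKM in Ctrl, 177, 175, 252, 176 and 217 in Alc and 168, 165, 169.9, 195 and 122 in Alc UA. All 5 Alc livers were above all controls, and in Alc UA 1 library, Alc UA 5, lay within the control range. The difference from Ctrl was 0.64 ± 0.13 in Alc (adjusted p = 0.0025) and 0.36 ± 0.13 in Alc UA (adjusted p = 0.038). The second call was lost in 9 of 28 alternative settings, among them without Alc UA 1, 2, 3 or 4 or without Ctrl 2, 3 or 5, where the adjusted p lay between 0.059 and 0.096.

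Gpt2 stood at 103, 86.2, 129.6, 119 and 88.3 FPKM in Ctrl, 158, 144, 166, 202 and 166 in Alc and 195, 173, 174, 120.01 and 121 in Alc UA. The Alc livers again lay above all controls, while Alc UA 4 and Alc UA 5 were within the control range. The difference from Ctrl was 0.67 ± 0.16 in Alc (adjusted p = 0.0052) and 0.56 ± 0.16 in Alc UA (adjusted p = 0.010). Summed over Got1, Got2, Gpt and Gpt2, the level was 535 to 699 FPKM in Ctrl, 797 to 925 in Alc and 657 to 1105 in Alc UA. That sum leaves out Tat, also an aminotransferase, at 607 ± 169 FPKM (SD, n = 5) in Ctrl and 516 ± 213 in Alc. It is therefore not the level of all aminotransferases.

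**Figure D3:**
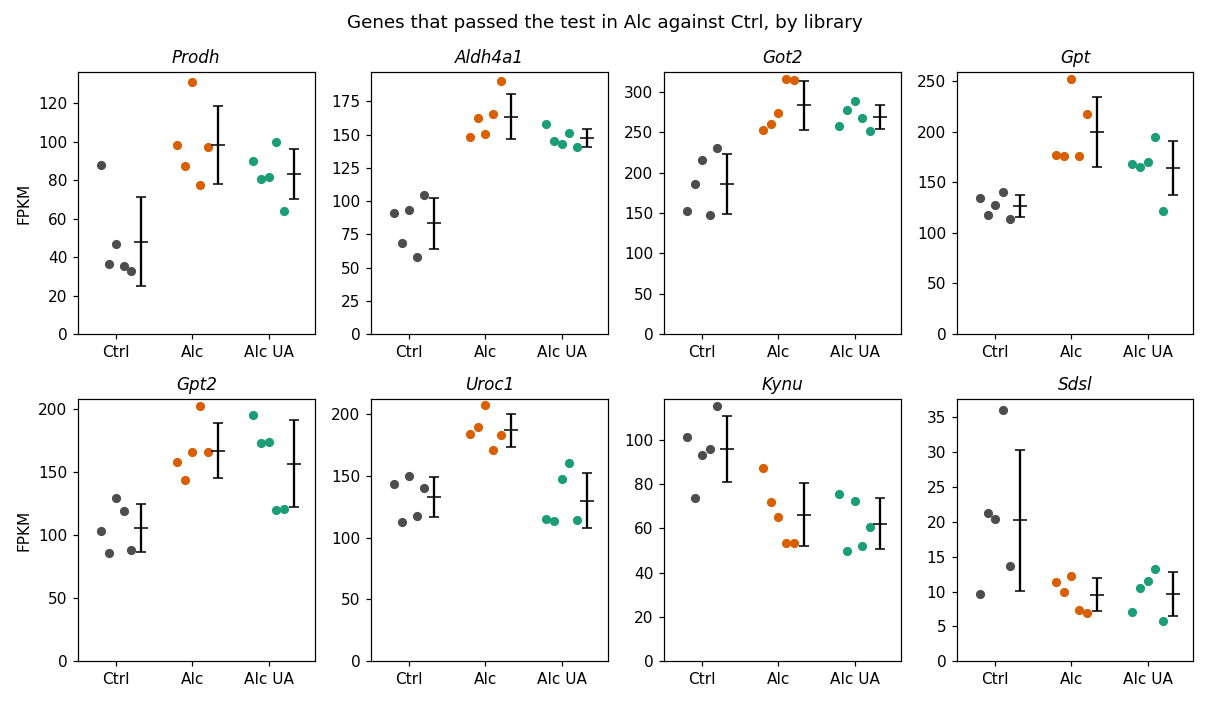
FPKM (y axis, from 0) of the 8 genes that passed the test in Alc against Ctrl, in each of the 15 libraries, grouped as Ctrl, Alc and Alc UA on the x axis, with each group's mean and SD beside its points. Aldh4a1, Got2, Gpt, Gpt2 and Uroc1 have every Alc liver above every Ctrl liver, Prodh has 1 control among the alcohol groups, and Kynu and Sdsl are lower with overlap.

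The 250 bases upstream of the annotated start are shown for the genes that rose in Alc and have an entry in the RefSeq promoter table (build GRCm38.p6). Of the 33 genes, 25 had an entry; Gpt had none. Each is written 5′ to 3′ on the strand of the gene, with capitals marking matches to a searched motif on either strand. The regions are chr16:18089191-18089440 (minus strand) for Prodh, chr4:139622644-139622893 (plus) for Aldh4a1, chr8:95888402-95888651 (minus) for Got2, chr8:85492326-85492575 (plus) for Gpt2 and chr6:90333039-90333288 (plus) for Uroc1.
Prodh: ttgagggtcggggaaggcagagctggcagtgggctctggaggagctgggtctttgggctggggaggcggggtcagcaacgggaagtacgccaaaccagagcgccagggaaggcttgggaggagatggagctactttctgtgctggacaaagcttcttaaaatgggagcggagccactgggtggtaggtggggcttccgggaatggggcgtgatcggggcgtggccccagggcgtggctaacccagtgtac
Aldh4a1: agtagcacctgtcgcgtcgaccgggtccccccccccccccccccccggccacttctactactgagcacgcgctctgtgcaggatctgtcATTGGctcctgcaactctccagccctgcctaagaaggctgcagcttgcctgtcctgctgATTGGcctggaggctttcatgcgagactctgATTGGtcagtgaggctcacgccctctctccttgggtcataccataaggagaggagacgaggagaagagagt
Got2: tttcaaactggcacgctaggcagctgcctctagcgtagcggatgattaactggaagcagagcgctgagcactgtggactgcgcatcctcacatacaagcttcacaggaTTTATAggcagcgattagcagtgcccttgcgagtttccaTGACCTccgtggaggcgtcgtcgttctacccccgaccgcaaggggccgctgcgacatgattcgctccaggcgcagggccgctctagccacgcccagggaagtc
Gpt2: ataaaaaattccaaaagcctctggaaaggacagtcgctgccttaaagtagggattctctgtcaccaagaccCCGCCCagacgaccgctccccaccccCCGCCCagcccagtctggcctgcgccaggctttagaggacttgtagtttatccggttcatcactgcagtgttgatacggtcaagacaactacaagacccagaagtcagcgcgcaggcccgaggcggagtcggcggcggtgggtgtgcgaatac
Uroc1: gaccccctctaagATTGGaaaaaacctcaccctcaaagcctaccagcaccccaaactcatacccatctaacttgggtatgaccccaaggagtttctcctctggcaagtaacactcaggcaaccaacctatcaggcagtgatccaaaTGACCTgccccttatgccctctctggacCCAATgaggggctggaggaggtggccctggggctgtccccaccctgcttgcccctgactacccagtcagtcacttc
The motifs searched were the E-box CACGTG, the cyclic AMP response element TGACGTCA and its shorter form TGACG, the nuclear receptor hexamer AGGTCA, the glucocorticoid receptor hexamer AGAACA, the box known as CCAAT, the TATA box with the letters TATAAA, and the GC box GGGCGG. The shorter response element lies within the longer one. Aldh4a1 held 3 CCAAT boxes, at 71, 102 and 161 bases before the start on the other strand. Got2 held 1 nuclear receptor hexamer and 1 TATA box, Gpt2 held 2 GC boxes, all on the other strand, and Uroc1 held 2 CCAAT boxes and 1 nuclear receptor hexamer. Prodh held none of these letter strings in this window. AGGTCA was found in 10 of the 25 genes and in 14.0% of all 32851 promoters of the same length, CCAAT in 10 genes and 33.8%, TATAAA in 6 and 12.4%, the GC box in 8 and 32.7%, CACGTG in 2 and 6.02%, TGACG in 3 and 17.8%, AGAACA in 3 and 16.1%, and TGACGTCA in 0 and 1.55%. A gene was counted once if any of its entries matched, while the background counts each entry, so the shares are not in like units. The median GC content was 55.6% for the promoters of the 25 genes and 52.4% for all promoters. A match is a match of letters and was not tested as a binding site.

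Tyrosine breakdown gave 0 calls by limma for its 4 genes in all 3 comparisons, also at an unadjusted p below 0.05. Over all tested genes 33.3% were called in Alc against Ctrl, 0.00912% in Alc UA against Alc and 42.6% in Alc UA against Ctrl. At the unadjusted threshold these shares were 45%, 6.06% and 51.4%. Tat, tyrosine aminotransferase, catalyses the first and rate-limiting step and is a classical target of glucocorticoids. It stood at 555, 512, 482, 900.2 and 584 FPKM in Ctrl, 869, 529.9, 427, 308 and 445 in Alc and 865, 559, 390.4, 666 and 324 in Alc UA, so that values ran over a similar span in each group. Hpd makes homogentisate and Hgd opens its aromatic ring, and they had differences of 0.19 ± 0.19 and -0.13 ± 0.15 in Alc against Ctrl. In Alc UA against Ctrl, Hpd passed in 1 of 28 alternative settings, without Alc 4 and Alc UA 5 together, at 0.40 (adjusted p = 0.039). Fah, the last enzyme of the route, had the smallest spread of the 4 relative to its mean in both alcohol groups, at 339 ± 34.2 FPKM (SD, n = 5) in Ctrl, 352 ± 21.1 in Alc and 313 ± 24.6 in Alc UA.

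Of the serine genes, Sds encodes serine dehydratase, which turns serine into pyruvate and ammonia, and Sdsl a related enzyme. Sds ranged over 137 to 362 FPKM in Ctrl, 136 to 329 in Alc and 88.0 to 259 in Alc UA. Sdsl stood at 9.69, 21.2, 20.5, 36.1 and 13.7 FPKM in Ctrl, 11.4, 9.96, 12.2, 7.38 and 6.93 in Alc and 7.04, 10.6, 11.6, 13.2 and 5.83 in Alc UA. All controls except Ctrl 1 lay above every liver of both alcohol groups, and Ctrl 1 lay within their range.

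The Sdsl mean was 2.11-fold higher in Ctrl than in Alc, a log2 difference of -0.91 ± 0.28 (adjusted p = 0.024), and the difference in Alc UA was -0.92 ± 0.28 (adjusted p = 0.017). The fall in Alc did not pass without Ctrl 2, Ctrl 4 or Alc 5 (adjusted p 0.053 to 0.063) or with median-of-ratios size factors (adjusted p = 0.056). Without Alc UA 5, the fall in Alc UA did not pass, and with size factors it was -0.70 (adjusted p = 0.062).

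Histidine breakdown was represented by 4 enzymes acting in sequence. Hal makes urocanate from histidine, Uroc1 and Amdhd1 carry it further, and Ftcd passes the formimino group that remains to tetrahydrofolate. Uroc1 stood at 143, 113, 149.8, 118 and 139.9 FPKM in Ctrl, 184, 189, 207, 171 and 182 in Alc and 115, 113, 147, 159.8 and 114 in Alc UA. The Alc livers lay above all livers of both other groups. Its difference was 0.49 ± 0.12 in Alc against Ctrl (adjusted p = 0.0057) and -0.04 ± 0.12 in Alc UA against Ctrl (adjusted p = 0.81, 95% interval -0.29 to 0.21).

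Ftcd stood at 152, 115, 159, 161 and 161 FPKM in Ctrl, 183, 189, 218, 168 and 189 in Alc and 148, 197, 182, 173 and 122 in Alc UA. Its Alc and Ctrl livers did not overlap, but the difference of 0.35 ± 0.13 missed the threshold (adjusted p = 0.055); 10 of 28 alternative settings put it past, among them without Ctrl 5, Alc 4, Alc UA 2 or Alc UA 5. Hal stood at 83.7, 101, 152, 157 and 98.9 FPKM in Ctrl and 193, 153, 265, 63.6 and 173 in Alc, where Alc 4 was lower than every control and the other 4 were each higher than at least 4 of the controls. The Hal difference of 0.42 ± 0.31 did not pass (adjusted p = 0.31), and without Alc 4 it was 0.73 with an adjusted p of 0.028. Amdhd1 had 102 ± 16.7 FPKM (SD, n = 5) in Ctrl and 111 ± 36.0 in Alc.

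The branched-chain genes gave 0 calls of 3 by limma in each comparison, and at an unadjusted p below 0.05 only Bckdk in Alc UA against Ctrl. Over all tested genes 33.3% were called in Alc against Ctrl, 0.00912% in Alc UA against Alc and 42.6% in Alc UA against Ctrl. At the unadjusted threshold these shares were 45%, 6.06% and 51.4%. Bckdha and Bckdhb encode subunits of the dehydrogenase that commits leucine, isoleucine and valine to breakdown, and Bckdk the kinase that switches it off. Their differences in Alc against Ctrl were 0.16 ± 0.09, -0.07 ± 0.12 and -0.12 ± 0.11. Bckdk stood at 5.31, 6.08, 6.74, 5.97 and 4.37 FPKM in Ctrl and 4.61, 4.48, 4.51, 4.64 and 4.46 in Alc UA, where the 5 values were close together, with Ctrl 5 below them and the other 4 controls above. That difference of -0.26 ± 0.11 did not pass (adjusted p = 0.066), but did without Ctrl 5 (adjusted p = 0.014) or without Alc 1 (adjusted p = 0.040). Bckdha passed in Alc against Ctrl with library weights and under all 3 other scalings, at 0.33 with size factors (adjusted p = 0.015), and with size factors also in Alc UA against Ctrl, at 0.26 (adjusted p = 0.037).

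Tryptophan breakdown runs from Tdo2, which opens the indole ring, through Kmo and Kynu to Haao, whose product either becomes NAD or is diverted by Acmsd. Kynu, kynureninase, fell. It stood at 101, 73.7, 92.9, 95.7 and 115 FPKM in Ctrl, 87.2, 72.1, 65.3, 53.3 and 53.2 in Alc and 75.5, 50.0, 72.2, 52.0 and 60.4 in Alc UA, where the lowest control, Ctrl 2, lay within both alcohol groups. The log2 difference was -0.54 ± 0.16 in Alc (adjusted p = 0.018) and -0.62 ± 0.16 in Alc UA (adjusted p = 0.0059), each against Ctrl. With median-of-ratios size factors these were -0.37 (adjusted p = 0.165) and -0.38 (adjusted p = 0.136), and without Alc 5 the first was -0.46 (adjusted p = 0.053).

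Kmo, kynurenine monooxygenase, stood at 112, 95.9, 109.7, 109 and 122 FPKM in Ctrl, 125, 127, 127, 122 and 146 in Alc and 141, 138, 138, 118 and 118 in Alc UA. The lowest Alc liver was just above the highest control. The difference of 0.24 ± 0.09 in Alc missed the threshold (adjusted p = 0.051), but passed in 11 of 28 alternative settings, among them size factors, where it was 0.41 (adjusted p = 0.019). That of 0.25 ± 0.09 in Alc UA passed (adjusted p = 0.035), and this call was lost in 8 of 28 alternative settings, among them without Ctrl 2, 3 or 4 or without Alc UA 1, 2 or 3 (adjusted p 0.054 to 0.097). Tdo2 and Haao had differences of 0.05 ± 0.14 and 0.20 ± 0.12 in Alc against Ctrl. Acmsd was close to the lower limit of the filter, at 2.87, 2.06, 3.40, 2.21 and 2.63 FPKM in Ctrl and 6.64, 3.07, 5.55, 1.19 and 2.43 in Alc, where Alc 1 and Alc 3 were above all controls and Alc 4 below them.

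Aass, which opens lysine breakdown, ranged over 107 to 195 FPKM in Ctrl, 100.1 to 155 in Alc and 103 to 164 in Alc UA, and its difference of -0.26 ± 0.17 in Alc did not pass (adjusted p = 0.23).

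Every Alc liver was above every control for 7 of the 33 genes, or 21.2%, namely Aldh4a1, Got2, Gpt, Gpt2, Uroc1, Ftcd and Kmo, and below every control for 0. Over all 10959 tested genes these shares were 6.18% above and 9.61% below, beside the 10.6% called higher and 22.8% called lower. In Alc UA against Ctrl, Got2 and Aldh4a1 had every liver above every control, 6.06% of the 33 genes, against 5.48% of all tested genes, and 0 of the 33 had every liver below every control, against 1610 of 10959.

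Between the alcohol diet with and without UA, 0 of the 33 genes passed the test. Over all tested genes 1 was called, a background of 0.00912%, which was higher in Alc UA, and 0% were called lower. At an unadjusted p below 0.05, 0 of the 33 genes were higher and 3 were lower, Uroc1, Haao and Gpt, against 156 higher and 508 lower of all tested genes (1.42% and 4.64%).

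Uroc1 had the smallest p of the 33 genes in that comparison and the 14th smallest of all tested genes. As listed above, all 5 Alc UA livers lay below all 5 Alc livers. That held for 1 of the 33 genes (3.03%), against 0.894% of all tested genes, and 0.283% of all lay wholly above. The Uroc1 mean was 1.44-fold higher in Alc. The log2 difference was -0.53 ± 0.12, with a 95% interval of -0.78 to -0.29, an unadjusted p of 3.4e-04 and an adjusted p of 0.26. Across the 28 alternative settings its adjusted p ran from 0.071 to 0.635, so it passed in none of them.

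Haao stood at 249, 243, 299, 212 and 249 FPKM in Alc and 206, 173, 208, 224 and 175 in Alc UA, which overlap, and its difference was -0.34 ± 0.12 (unadjusted p = 0.011, adjusted p = 0.72). For Gpt it was -0.28 ± 0.13 (unadjusted p = 0.048, adjusted p = 0.82). Among the genes that rose in Alc, the differences of Alc UA from Alc had 95% intervals of -0.71 to 0.24 for Prodh, -0.43 to 0.15 for Aldh4a1, -0.34 to 0.19 for Got2 and -0.44 to 0.22 for Gpt2, all of which include 0. The median difference was -0.12 log2 over the 33 genes and -0.05 over all tested genes, with 10 of 33 estimates above 0.

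Against Ctrl, the Alc UA livers had 6 of the 33 genes higher and 2 lower, where 4673 of all tested genes were called, a background of 42.6% made up of 10.5% higher and 32.1% lower. The 6 higher genes were Prodh, Aldh4a1, Got2, Gpt, Gpt2 and Kmo, and the 2 lower ones Kynu and Sdsl. The median difference was -0.04 log2 over the 33 genes and -0.16 over all tested genes. With median-of-ratios size factors 8 of the 33 rose and 0 fell, while over all tested genes 2738 rose and 2022 fell, and the medians were 0.20 and 0.04.

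**Figure D4:**
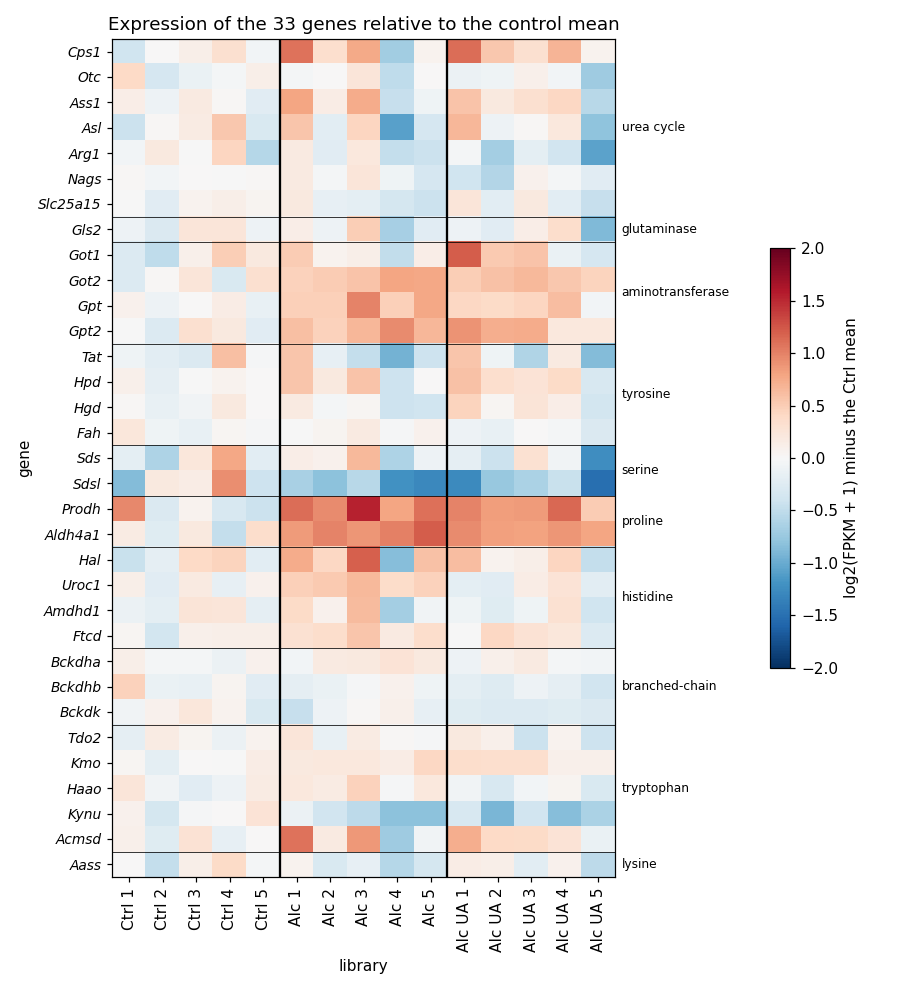
Log2(FPKM + 1) minus the Ctrl mean (colour) for each of the 33 genes (rows, by pathway) in each of the 15 libraries (columns, by group). The Prodh, Aldh4a1, Got2 and Gpt2 rows are red in nearly all alcohol columns, the Kynu and Sdsl rows blue, and the Alc 4 and Alc UA 5 columns are blue over most urea cycle and tyrosine rows.

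Within the groups, livers differed from each other along a shared direction. A principal component analysis of the 33 genes put 42.0% of the variance on a first component on which Hal, Asl, Sds, Cps1, Acmsd and Ass1 had the largest weights. Alc 4 and Alc UA 5 were lowest on it, at -2.63 and -2.57, and Alc 1, Alc 3 and Alc UA 1 highest, at 1.92, 1.89 and 1.46. The Ctrl livers lay between -1.01 and 1.18. The second component held 29.2% and separated the controls, at 0.58 to 2.51, from the alcohol groups, at -1.35 to -0.44, which overlapped each other. Its largest weights were those of Sdsl and Kynu on one side and Prodh, Aldh4a1, Gpt2 and Got2 on the other.

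**Figure D5:**
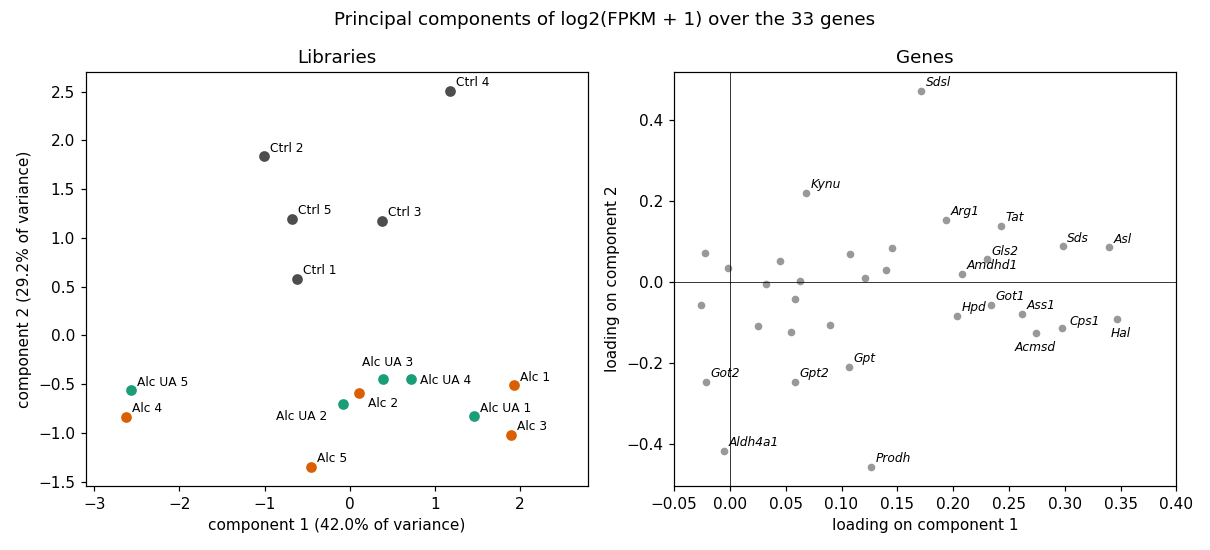
Principal components of log2(FPKM + 1) over the 33 genes. Left, scores of the 15 libraries on component 1 (x axis, 42.0% of variance) and component 2 (y axis, 29.2%), coloured by group; right, weights of the genes on the same components. The 5 Ctrl libraries lie above 0.5 on component 2 and the 10 alcohol libraries below -0.4, and Alc 4 and Alc UA 5 stand apart at the left of component 1.

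Counted gene by gene, Alc 4 was the lowest of its group for 21 of the 33 genes and 5 of the 7 urea cycle genes, and Alc UA 5 for 25 and 6. Among controls, Ctrl 2 was lowest for 16. The urea cycle sum was 2751 FPKM in Alc 4 and 2625 in Alc UA 5, below the 3311 to 4825 of the controls, and 6127 in Alc 1, 5796 in Alc 3 and 5614 in Alc UA 1, above them. The median coefficient of variation over the 7 urea cycle genes was 17.7% in Ctrl, 22.9% in Alc and 25.7% in Alc UA, and over all 33 genes it was 16.5%, 17.7% and 19.4%. With Alc 4 and Alc UA 5 left out, an alternative chosen after seeing the data, 9 of the 33 genes rose and 1 fell in Alc against Ctrl, Hal with a difference of 0.73 among them, and the urea cycle had 0 calls. Over all tested genes 960 rose and 2474 fell in that setting. In Alc UA against Ctrl, 8 of the 33 rose and 1 fell, and 1084 and 2794 of all tested genes, with Cps1 now past the threshold at 0.66 (adjusted p = 0.029).

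Further genes of amino acid metabolism were counted from a list of 85 enzymes, transporters and regulators. The list was chosen by function, with earlier results of these data known. Of these, 83 were in the table and 78 passed the filter. In Alc against Ctrl, 30 rose and 7 fell, beside the background of 33.3%, made up of 10.6% higher and 22.8% lower. The median difference was 0.20 log2. Enzymes made up 25 of the rises and 4 of the falls out of 55 tested, transporters 4 and 2 of 12, and regulators 1 and 1 of 11. In Alc UA against Alc, 0 of 78 passed, beside a background of 0.00912%. At an unadjusted p below 0.05, 3 were higher and 6 lower, against 1.42% higher and 4.64% lower over all tested genes. In Alc UA against Ctrl, 29 rose and 12 fell, beside the background of 42.6%, made up of 10.5% higher and 32.1% lower.

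Slc38a3, a glutamine transporter of the hepatocyte membrane, had the smallest p of that list in Alc against Ctrl. It rose from 284 ± 45.4 to 578 ± 45.6 FPKM (SD, n = 5 each), a difference of 1.03 ± 0.12 (adjusted p = 6.2e-05), and Alc UA stood at 577 ± 63.2. Dhtkd1, which acts in lysine and tryptophan breakdown downstream of Aass, rose from 16.7 ± 3.55 to 38.4 ± 5.24 FPKM, with a difference of 1.17 ± 0.14 (adjusted p = 7.0e-05). Gcgr, the glucagon receptor, fell from 229.8 ± 31.4 to 134 ± 18.2 FPKM, a difference of -0.78 ± 0.12 (adjusted p = 4.2e-04).

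Mccc1 (leucine), Aldh6a1 and Hibch (both valine) act downstream of the branched-chain dehydrogenase and rose by 0.78, 0.57 and 0.55 log2, with every Alc liver above every control. These genes are named because their p-values in Alc against Ctrl were among the smallest of the list. Their separation is therefore not independent of how they were picked. Over all tested genes, 6.18% had every Alc liver above every control. Hoga1, the last enzyme of hydroxyproline breakdown, and Asrgl1, an asparaginase, rose by 0.52 and 0.69. Glud1, glutamate dehydrogenase, rose from 189 ± 33.7 to 249 ± 16.6 FPKM (adjusted p = 0.019). Klf15, a transcription factor known to drive amino acid breakdown genes in mouse liver, had a difference of 0.39 ± 0.15 that missed the threshold (adjusted p = 0.056).

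Glul and Oat, glutamine synthetase and ornithine aminotransferase, are nitrogen enzymes known from the pericentral zone. Glul stood at 154 to 504 FPKM in Ctrl and 337 to 458 in Alc, a difference of 0.72 ± 0.24 (adjusted p = 0.029), with Ctrl 1 the highest of all 10. Oat ranged over 476 to 2237 FPKM in Ctrl and 726 to 1347 in Alc, again with Ctrl 1 the highest, and did not pass (adjusted p = 0.64).

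In Alc UA against Alc, Gldc, the decarboxylase of the glycine cleavage system, had the smallest p of the list. It stood at 50.0 ± 8.83 FPKM (SD, n = 5) in Ctrl, 30.3 ± 5.82 in Alc and 17.8 ± 3.86 in Alc UA, with no overlap between any pair of groups. The Gldc difference was -0.71 ± 0.17 in Alc against Ctrl (adjusted p = 0.0062), -0.74 ± 0.17 in Alc UA against Alc (adjusted p = 0.27) and -1.45 ± 0.17 in Alc UA against Ctrl (adjusted p = 4.0e-05). The next by p in Alc UA against Alc were Ppm1k, the phosphatase that reactivates the branched-chain dehydrogenase, at 0.37, Cdo1, cysteine dioxygenase, at -0.30, and Cebpa at -0.33. Asns, Gcsh, Kyat3 and Aspg followed at 1.26, -0.22, 0.54 and -0.43. The adjusted p-values of these 7 genes lay between 0.778 and 0.819. Asns ranged over 0.96 to 5.28 FPKM in Alc and 2.09 to 20.92 in Alc UA, with Alc UA 5 the highest. Kyat3 ranged over 27.5 to 63.3 FPKM in Alc and 50.0 to 117 in Alc UA, with Alc UA 4 the highest. For both genes the 2 groups overlapped.

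Markers of the cells in the samples were read beside these results. All libraries had high levels of the hepatocyte marker Alb, at 14848 FPKM or more, and the 4 kidney tubule markers, a tissue that shares several of these enzymes, summed to at most 0.22 FPKM. The 6 hepatocyte markers, Alb among them, summed to 33783 to 56056 FPKM in Ctrl, 43754 to 59255 in Alc and 29335 to 48773 in Alc UA. Of these, 1 was called higher and 2 lower in Alc against Ctrl. The summed level of 6 sinusoidal endothelial markers was 86.5 to 245 FPKM in Ctrl, 38.8 to 80.7 in Alc and 38.2 to 54.5 in Alc UA, and 5 of the 6 fell in Alc against Ctrl. The 5 red cell genes summed to 1431 to 8800 FPKM in Ctrl, 576 to 988 in Alc and 346 to 1033 in Alc UA, and all 5 fell. The 8 pericentral markers summed to 3503 to 7547 FPKM in Ctrl, 8887 to 10873 in Alc and 9891 to 12423 in Alc UA, with 4 of 8 higher and 1 lower in Alc. Most of that sum was Cyp2e1, and without it the other 7 summed to 1072 to 3550, 1589 to 2420 and 1381 to 2883 FPKM, ranges that overlap, with Ctrl 1 the highest library. The 7 periportal markers outside the 33 genes summed to 5302 to 9487, 3712 to 5554 and 4083 to 6334 FPKM, with 1 of 7 higher and 1 lower in Alc. Most of that sum was Apoa4 and Pck1, with means of 3257 and 2424 FPKM in Ctrl and 2353 and 1547 in Alc. The gene called higher was Aldh1b1, at 1.63 log2, and the gene called lower was Pck1, at -0.67. The part of these shifts in the differences of the 33 genes was not tested. Ctrl 1, the control with the highest Prodh, had the highest pericentral sum of its group, and Ctrl 4, with the highest Tat and Sdsl, the lowest pericentral and highest periportal sum. Single markers weighed on these ranks: Oat was 2237 FPKM in Ctrl 1 and 912 in Ctrl 5, while Cyp2e1 was 3996 and 5132. Apoa4 was 5268 FPKM in Ctrl 4. A link between these sums and the levels of Prodh, Tat or Sdsl was not tested.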

How the data were processed

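RNA from 15 mouse livers was sequenced on an MGI platform, per the labels' protocols. The deposited table holds FPKM values for 18510 gene rows, written by the authors to 2 decimals; per the submitters' processing notes, the tools were RSEM 1.2.8, HISAT2 2.1.0, DESeq, Bowtie2 2.2.5 and StringTie, with no role given. For genome build, annotation and strand: not given in the sources used here. FPKM are not counts and sequencing depth is unknown: the smallest value above 0 was 0.01 in every library, so counts could not be recovered, and no interval for counting error is given.

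Groups were taken from the labels, which name 5 mice each. Values were transformed to log2(FPKM + 1), and limma 3.58.1 (R 4.3.3) was fitted to the 10959 genes that reached 1 FPKM in 5 or more libraries, with all 3 groups in a single fit (12 residual degrees of freedom), a trended variance prior and Benjamini-Hochberg adjustment over all tested genes of a comparison at 0.05. Fold changes on this scale understate those of low genes. Tables were handled in Python 3.11.15 with pandas 2.3.3 and drawn with matplotlib 3.10.9. The fit was tested on simulated data in which few genes differed between groups. Over the 3 comparisons, 46% to 48% of differences of 0.5 log2 were recovered, and 82% to 96% of those of 1 log2. Of the calls, 6.59% to 7.10% were false, at an adjusted p below 0.05. The simulated noise was independent between genes and libraries. In the data, 33.3% of tested genes were called in Alc against Ctrl and 42.6% in Alc UA against Ctrl. The simulated shares therefore cannot be carried over to these comparisons.

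The 33 genes, the 85 related genes and the markers were chosen by function, with earlier results of these data known. The text names all 33 genes and, of the related genes, the 8 with the smallest p in Alc against Ctrl, the 8 with the smallest p in Alc UA against Alc, and Klf15, Gcgr, Glul, Oat and Glud1; genes that overlap a listed gene are named for that reason. Alternatives covered the pseudocount, the filter, 3 other scalings, library weights, the variance prior, a fit over 2 groups, a replicate block and leaving out libraries. Promoters are RefSeq entries of GRCm38.p6, matched by symbol, and gene overlaps are from GENCODE M21; no coordinates of the authors' files were used.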

Additional observations from a re-analysis of the deposited data

Results flagged for a closer look

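For each of the 33 genes in each of the 3 groups, the library farthest from the others was compared with the spread of its group. In 4 of 99 such groups 1 library stood apart by Dixon's criterion, and chance alone flags about 1 in 20. Tat was 900.19 FPKM in Ctrl 4, where the other controls lay between 482 and 584. Prodh was 88.13 FPKM in Ctrl 1, where the others lay between 32.7 and 47.1. Ftcd was 114.83 FPKM in Ctrl 2, where the others lay between 152 and 161. Kmo was 145.59 FPKM in Alc 5, where the others lay between 122 and 127. Tests of the differences without each of these libraries are among the alternatives below.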

How the results depend on the processing

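Each comparison was repeated under 28 alternatives, 2 of them chosen after seeing the data. The rises of Prodh, Aldh4a1, Got2, Gpt, Gpt2 and Uroc1 in Alc against Ctrl, and those of Prodh, Aldh4a1, Got2 and Gpt2 in Alc UA against Ctrl, passed in all of them, and no called difference of the 33 genes changed sign. The number of the 33 genes called ran from 6 to 11 in Alc against Ctrl and from 6 to 10 in Alc UA against Ctrl, and was 0 throughout in Alc UA against Alc; with related genes it ran from 27 to 51, from 31 to 55, and 0. With quantile normalization 9 of the 33 rose and 2 fell in Alc against Ctrl (2049 and 2024 of all tested genes), and with equal library sums 10 and 1 (1602 and 1294). The median difference of all tested genes in Alc against Ctrl moved from -0.12 to 0.02 with median-of-ratios size factors and to -0.0019 with quantile normalization. Kynu also failed to pass in Alc against Ctrl with library weights (adjusted p = 0.074), with equal sums (0.069), without Ctrl 1 and Ctrl 5 together (0.089), and without Alc 4 and Alc UA 5 together (0.0503). Over all tested genes, 5870 were called in Alc against Ctrl with library weights. In Alc UA against Alc, where 1 gene was called, the count was 2 with a filter of 5 FPKM, 2 with equal library sums, 3 with library weights, 0 in a fit over the 2 groups, 2 without Ctrl 1 and Ctrl 5 together, and 1 to 5 with each library left out in turn, the highest without Alc UA 4. The cause was not tested.

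Libraries that share a replicate number did not deviate together over the tested genes (correlations of residuals -0.30 to 0.29 over 15 pairs, against -0.35 to 0.34 over 60 pairs of different number), and in 5 of 30 cases a library correlated best with its own number in another group, so the numbers were not taken as pairs. With a replicate block the counts of the 33 genes were 8, 0 and 8, with Arg1 gained (adjusted p = 0.044) and Kmo lost (0.054) in Alc UA against Ctrl, and 0 genes overall were called in Alc UA against Alc. Depth is unknown, so the precision of low genes such as Acmsd and Bckdk cannot be given.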
